A study of Homo sapiens with 6 samples.

Results

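The replication-dependent histone genes encode the linker histone H1 and the core histones H2A, H2B, H3 and H4 that package newly made DNA. The probe sets (transcript clusters) taken were those annotated with exactly 1 gene symbol of the forms H1-1 to H1-6, H2AC, H2BC, H3C or H4C followed by a number, or of the older form that starts with HIST, and where a gene had more than 1, the probe set with the highest mean signal across the 6 arrays stood for it. This gave 62 genes of the 33458 genes measured, with 6 H1, 13 H2A, 19 H2B, 11 H3 and 13 H4 members. Of these, 58 are protein-coding genes, 3 are pseudogenes that matched through an older symbol (H2ACP1, H2BP6 and H3P4), and 1 is a probe set that still carries the older symbol HIST1H2BE. By the number in the probe set identifier, 50 lie on chromosome 6, 9 on chromosome 1, 2 on chromosome 13 and 1 on chromosome 12. The genes were taken by name, and the signal chose only among the probe sets of 1 gene.

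ATRX KO cells were compared with ATRX NC cells, with 3 arrays each. By the series design they were LN229R cells, which were derived from the glioblastoma line LN229 and resist TMZ, whereas the sample labels say LN229, and the methods do not say which of the study's lines was profiled. Both groups carried a CAS9 virus and had been selected with puromycin for 7 days. ATRX KO cells then received virus with sgRNAs against ATRX for 24 hours, and ATRX NC cells received virus with a non-targeting sgRNA for the same time. Whether the cells were a pool or a clone, and whether arrays of a group came from separate cultures, is not stated by the labels or methods. The p-values therefore rest on a spread between arrays that may be technical. ATRX is a chromatin remodeler that, with DAXX, deposits the replication-independent histone H3.3.

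Replication-dependent histone mRNAs are made in bulk during S phase and most end in a conserved stem-loop in place of a poly(A) tail. Their genes lie in clusters, the largest of them on chromosome 6, where NPAT activates transcription at the histone locus body and the stem-loop binding protein SLBP carries the mRNA through processing and translation. Many H2A and H2B genes are arranged as divergent pairs that share the DNA between their starts.

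Most replication-dependent histone genes were higher in ATRX KO cells. Of the 62 members, 40 rose and 0 fell by limma at an adjusted p under 0.05, whereas 5.83% of all genes rose and 3.72% fell, 9.55% in either direction. At an unadjusted p under 0.05, 55 members were higher and 0 lower, both by limma and by the methods' t-test. The log2 fold change was above 0 for 61 of the 62, and for 19622 of all 33458 genes. Its median was 0.73 (1.65-fold) over members, while the median over all genes was 0.07. After each of 3 rescalings of the arrays 58 were above 0, since H2AC25, H4C16 and H4C7, all near 0 as deposited, then lay below it. Every ATRX KO array lay above every ATRX NC array for 57 members, against 19.0% of all genes, and for the other 5 the groups overlapped. Without ATRX KO replicate 1 the test called 26 members, and 27 to 31 when any other array was left out. The members are not independent measurements, because genes of a class are near-identical in coding sequence and probes may take up signal from several copies.

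**Figure D1:**
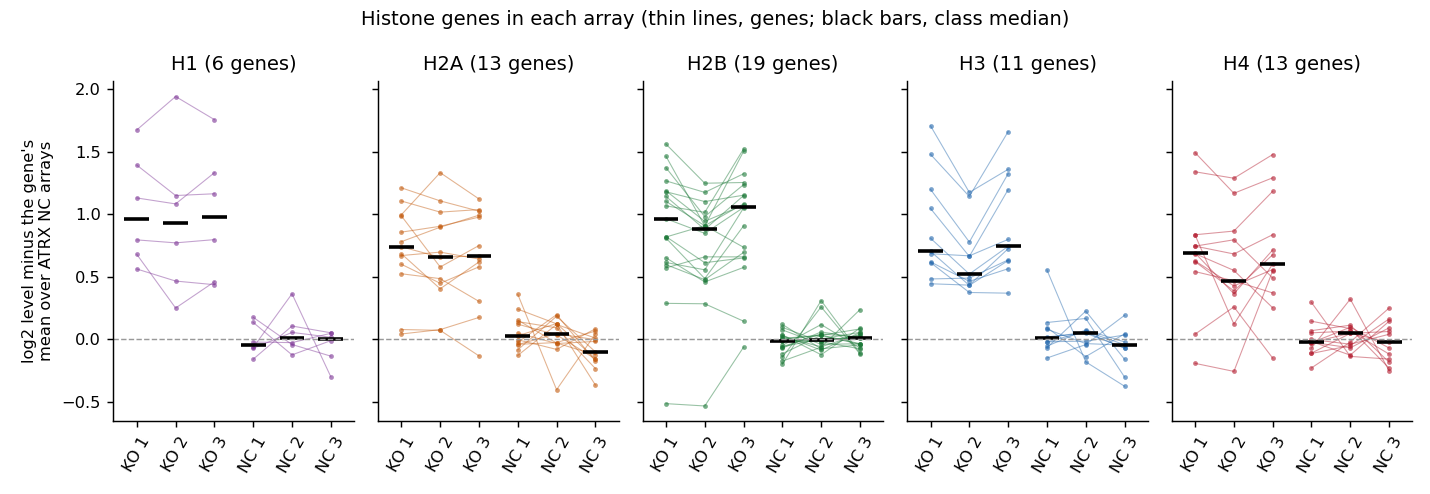
Log2 level of each histone gene minus its mean over the ATRX NC arrays (y axis) in each of the 3 ATRX KO and 3 ATRX NC arrays (x axis), by class, with thin lines for genes and black bars for the class median. In each class the medians of the 3 ATRX KO arrays lie above those of the 3 ATRX NC arrays, and ATRX KO replicate 2 is the lowest ATRX KO array for 42 of the 62 genes.

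The 3 ATRX KO arrays did not rise equally. Relative to the ATRX NC mean of each gene, the median over members was 0.79 in ATRX KO replicate 1, 0.66 in replicate 2 and 0.75 in replicate 3. ATRX KO replicate 2 was the lowest ATRX KO array for 42 members and the highest for 7, and the median log2 fold change without it was 0.78.

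Promoter windows of 250 bases before to 50 after the start were read from RefSeq (GRCh38.p14) for 54 of the 62 members, at the first start listed for a gene. The letters TATAAA, the core of the TATA box, stood in 38 of 54 windows on either strand (70.4%), against 12% of the windows of all 27305 genes. CCAAT, the box bound by the NF-Y complex, stood in 46 (85.2%), against 35.7% of all. CCAAT was present in every H1, H2A, H2B and H3 window and in 3 of the 11 H4 windows. The octamer ATTTGCAT, a known element of H2B promoters bound by POU2F1, stood in 14 of 17 H2B and 8 of 11 H2A windows and in none of the H1, H3 and H4 windows, against 1.8% of all. Both strands were searched for each motif, and matches of different motifs, which can share bases, were counted separately. In 8 divergent pairs of an H2A and an H2B gene the starts lie 215 to 248 bases apart, so their windows overlap. A match between such starts counts for both genes, and the H2A and H2B counts are not independent. The bases before the start are shown for the member with the largest rise in H1, H3 and H4, for H2BC7 as a rising H2B gene with the octamer, and for H4C16 as an H4 gene with a difference near 0, each 5′ to 3′ with the letters of the 3 motifs in capitals on either strand:
H1-3 (chr6:26234988-26235237, minus strand): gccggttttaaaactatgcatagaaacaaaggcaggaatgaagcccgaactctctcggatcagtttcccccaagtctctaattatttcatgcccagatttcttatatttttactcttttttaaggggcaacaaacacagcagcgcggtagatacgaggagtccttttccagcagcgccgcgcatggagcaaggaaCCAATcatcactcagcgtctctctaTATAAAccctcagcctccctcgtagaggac
H3C10 (chr6:27809801-27810050, plus strand): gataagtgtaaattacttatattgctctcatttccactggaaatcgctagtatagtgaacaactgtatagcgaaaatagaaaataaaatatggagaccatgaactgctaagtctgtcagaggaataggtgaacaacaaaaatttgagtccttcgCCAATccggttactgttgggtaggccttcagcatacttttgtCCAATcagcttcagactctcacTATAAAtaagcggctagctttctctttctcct
H4C4 (chr6:26189113-26189362, minus strand): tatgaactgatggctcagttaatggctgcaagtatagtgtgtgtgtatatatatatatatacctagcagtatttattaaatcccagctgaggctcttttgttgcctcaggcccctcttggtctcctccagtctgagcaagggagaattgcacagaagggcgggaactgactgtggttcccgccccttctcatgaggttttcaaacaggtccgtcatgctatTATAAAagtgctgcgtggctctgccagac
H2BC7 (chr6:26199266-26199515, plus strand): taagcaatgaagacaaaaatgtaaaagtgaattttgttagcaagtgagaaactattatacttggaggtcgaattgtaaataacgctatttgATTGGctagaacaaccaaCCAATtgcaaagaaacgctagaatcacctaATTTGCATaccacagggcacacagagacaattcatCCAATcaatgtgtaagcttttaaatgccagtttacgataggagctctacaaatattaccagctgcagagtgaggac
H4C16 (chr12:14771132-14771381, minus strand): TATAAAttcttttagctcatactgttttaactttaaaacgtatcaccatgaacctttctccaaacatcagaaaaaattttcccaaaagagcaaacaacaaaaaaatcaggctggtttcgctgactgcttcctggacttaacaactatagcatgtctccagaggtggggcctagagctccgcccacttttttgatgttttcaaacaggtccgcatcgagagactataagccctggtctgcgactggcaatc

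In H1-3, H3C10 and H4C4 the TATAAA letters began 30, 32 and 29 bases before the start. H1-3 had CCAAT at 55 bases before the start and H3C10 at 54 and 96, while the H4C4 window held none. H4C4 and H4C16 shared a run of 17 bases, gttttcaaacaggtccg, that began 55 and 56 bases before their starts, although H4C4 rose by 1.37 and H4C16 differed by 0.05. The H4C16 probe set was dim, with a mean log2 level of 6.61 over the arrays, against 12.54 for H4C4. In H4C16 the letters TATAAA stood, among the bases shown, only at the far end, 250 bases before the start. The letters GGTCCG, looked for after the windows were seen, stood in 10 of 11 H4 windows (all but H4C7), in 3 of the 43 other members and in 11.2% of all windows.

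H1 genes, which encode the linker histones that bind DNA at its entry to the nucleosome, rose in 4 of 6 cases, with a median log2 fold change of 0.98. H1-3 had log2 levels of 12.40, 12.67 and 12.49 in ATRX KO arrays, against 10.90, 10.69 and 10.59 in ATRX NC arrays. This was a log2 fold change of 1.79 ± 0.16 (SE, 3.46-fold, limma adjusted p = 0.00031), the largest among the 62 members. H1-2 had 12.42, 12.17 and 12.19 in ATRX KO arrays, against 10.95, 11.08 and 11.04 in ATRX NC arrays, a rise of 1.24 ± 0.15 (adjusted p = 0.0015). With the mean over the H1-2 probe sets the rise was 0.95 (limma adjusted p = 0.0081). The other H1-2 probe set was dimmer, with 7.90, 7.98 and 8.71 in ATRX KO arrays, against 7.68, 7.59 and 7.31 in ATRX NC arrays. Its identifier number lies among genes of the plus strand, whereas H1-2 is on the minus strand. Which transcript it measured is not settled. H1-6, the testis-type H1, was at a dim signal of 6.89, 6.84 and 7.09 in ATRX KO arrays, against 5.69, 6.12 and 5.46 in ATRX NC arrays, and rose by 1.18 ± 0.20 (adjusted p = 0.0081). H1-5 also rose, by 0.79. H1-4, the H1 probe set with the highest signal, had 17.59, 17.49 and 17.46 in ATRX KO arrays, against 17.00, 17.00 and 17.07 in ATRX NC arrays. Its groups did not overlap, yet its difference of 0.49 ± 0.14 did not pass (adjusted p = 0.064), nor did that of H1-1 (0.46).

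H2A genes, which encode core histones that pair with H2B, rose in 8 of 13 cases, with a median of 0.69. Named after their values were seen, H2AC6, H2AC4 and H2AC13 had the largest rises, of 1.15, 1.11 and 1.05. H2AC14, the H2A probe set with the highest signal, had 17.80, 17.71 and 17.72 in ATRX KO arrays, against 17.01, 17.10 and 17.05 in ATRX NC arrays. Its rise of 0.69 ± 0.14 (adjusted p = 0.017) no longer passed without ATRX KO replicate 1 or 3 or ATRX NC replicate 1 or 3. The class count was 5 without ATRX KO replicate 1, ATRX KO replicate 3 or ATRX NC replicate 3. At the low end, H2AC25 had 8.54, 8.53 and 8.33 in ATRX KO arrays, against 8.44, 8.66 and 8.29 in ATRX NC arrays, and the groups overlapped, with a difference of 0.01 ± 0.16. The pseudogene H2ACP1 differed by 0.10 ± 0.14, also with overlap.

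H2B genes rose in 16 of 19 cases, with a median of 0.96. For all 17 coding H2B genes every ATRX KO array lay above every ATRX NC array, against 19.0% of all genes. The class count was 11 without ATRX KO replicate 1 or 3 or ATRX NC replicate 1 or 3, and 13 without replicate 2 of either group. The calls of H2BC4, H2BC18 and H2BC21 were lost when any of the 6 arrays was left out. H2BC13 had 10.38, 10.07 and 10.08 in ATRX KO arrays, against 8.83, 8.85 and 8.78 in ATRX NC arrays, a rise of 1.35 ± 0.15 (adjusted p = 0.0011). H2BC3 had 11.03, 10.47 and 11.07 in ATRX KO arrays, against 9.59, 9.51 and 9.61 in ATRX NC arrays, and rose by 1.29 ± 0.19 (adjusted p = 0.0045). In this gene ATRX KO replicate 2 lay apart from the other ATRX KO arrays but still above all ATRX NC arrays. H2BC10 had 8.12, 8.03 and 8.18 in ATRX KO arrays, against 6.89, 6.77 and 6.91 in ATRX NC arrays, with a rise of 1.26 ± 0.14. H2BC17 had 7.34, 7.29 and 7.80 in ATRX KO arrays, against 6.20, 6.33 and 6.28 in ATRX NC arrays, with a rise of 1.20 ± 0.18. In both genes every ATRX KO array lay above every ATRX NC array. H2BC5 had 12.98, 12.59 and 12.84 in ATRX KO arrays, against 11.49, 11.64 and 11.69 in ATRX NC arrays, with a rise of 1.20 ± 0.16. H2BC12, the H2B probe set with the highest signal, stood at the other end, with 17.71, 17.70 and 17.56 in ATRX KO arrays, against 17.36, 17.46 and 17.43 in ATRX NC arrays. Its groups did not overlap, but the difference of 0.24 ± 0.14 did not pass (adjusted p = 0.34). HIST1H2BE was the sole member below 0 on the deposited scale, at -0.37 ± 0.19, and its dim signal of 2.19, 2.17 and 2.64 in ATRX KO arrays overlapped with 2.53, 2.64 and 2.94 in ATRX NC arrays. Its symbol is an older name of more than 1 RefSeq gene and its identifier number lies among genes of the minus strand, so which transcript it measured is not settled.

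H3 genes rose in 7 of 11 cases, with a median of 0.69. For all 11 every ATRX KO array lay above every ATRX NC array, against 19.0% of all genes. H3C10 had 9.90, 9.57 and 10.08 in ATRX KO arrays, against 8.44, 8.48 and 8.35 in ATRX NC arrays, a rise of 1.43 ± 0.17 (adjusted p = 0.0016). H3C8 was dim, with 6.04, 5.51 and 5.69 in ATRX KO arrays, against 4.89, 4.15 and 3.96 in ATRX NC arrays. The call of its rise (1.41 ± 0.26, adjusted p = 0.013) was lost when ATRX KO replicate 1 or ATRX NC replicate 2 was left out. H3C11, the H3 probe set with the highest signal, had 16.14, 15.90 and 15.89 in ATRX KO arrays, against 15.50, 15.59 and 15.48 in ATRX NC arrays, and its difference of 0.45 ± 0.15 did not pass (adjusted p = 0.098). H3 held both members nearest inside the threshold. H3C13 had 11.21, 11.06 and 11.16 in ATRX KO arrays, against 10.57, 10.58 and 10.63 in ATRX NC arrays, a rise of 0.55 ± 0.14 (adjusted p = 0.044). H3C15 had 14.57, 14.29 and 14.51 in ATRX KO arrays, against 13.90, 13.93 and 13.46 in ATRX NC arrays, a rise of 0.69 ± 0.18 (adjusted p = 0.0497). Neither passed when any of the 6 arrays was left out. The class count was 2 without ATRX KO replicate 1, 3 without ATRX NC replicate 2, and 4 without ATRX KO replicate 2, ATRX KO replicate 3 or ATRX NC replicate 3.

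H4 genes rose in 5 of 13 cases, with a median of 0.56. H4C4 had 13.19, 13.14 and 13.33 in ATRX KO arrays, against 11.84, 11.73 and 11.999 in ATRX NC arrays, a rise of 1.37 ± 0.15 (adjusted p = 0.00097). H4C1 had 11.43, 11.11 and 11.23 in ATRX KO arrays, against 10.08, 10.02 and 9.71 in ATRX NC arrays, a rise of 1.32 ± 0.17 (adjusted p = 0.0023). The other 3 rises were of 0.68 to 0.96. H4C3, whose probe set had the highest signal of all members, had 18.60, 18.40 and 18.53 in ATRX KO arrays, against 17.90, 18.30 and 17.72 in ATRX NC arrays. ATRX NC replicate 2 came close to the ATRX KO arrays, and the difference of 0.54 ± 0.18 did not pass (adjusted p = 0.11). With the mean over the H4C3 probe sets it was 0.85 and passed (limma adjusted p = 0.039). The other H4C3 probe set was dimmer, with 11.49, 10.53 and 11.65 in ATRX KO arrays, against 10.17, 10.08 and 9.91 in ATRX NC arrays. Its identifier number lies among genes of the minus strand, and which transcript it measured is not settled. The members nearest outside the threshold were also H4 genes. H4C11 had 15.50, 15.27 and 15.56 in ATRX KO arrays, against 14.85, 14.98 and 14.81 in ATRX NC arrays (0.56 ± 0.15, adjusted p = 0.055). H4C12 had 11.42, 11.10 and 11.45 in ATRX KO arrays, against 10.79, 10.80 and 10.62 in ATRX NC arrays (0.59 ± 0.16, adjusted p = 0.057). In both, the groups did not overlap. H4C16, on chromosome 12, and H4C7 differed by 0.05 ± 0.16 and 0.03 ± 0.24, with overlapping groups. Both were dim, with mean log2 levels of 6.61 and 4.48, against a median of 6.10 over all genes. The class count was 3 without ATRX KO replicate 3, ATRX NC replicate 2 or ATRX NC replicate 3. The difference between classes was not tested.

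**Figure D2:**
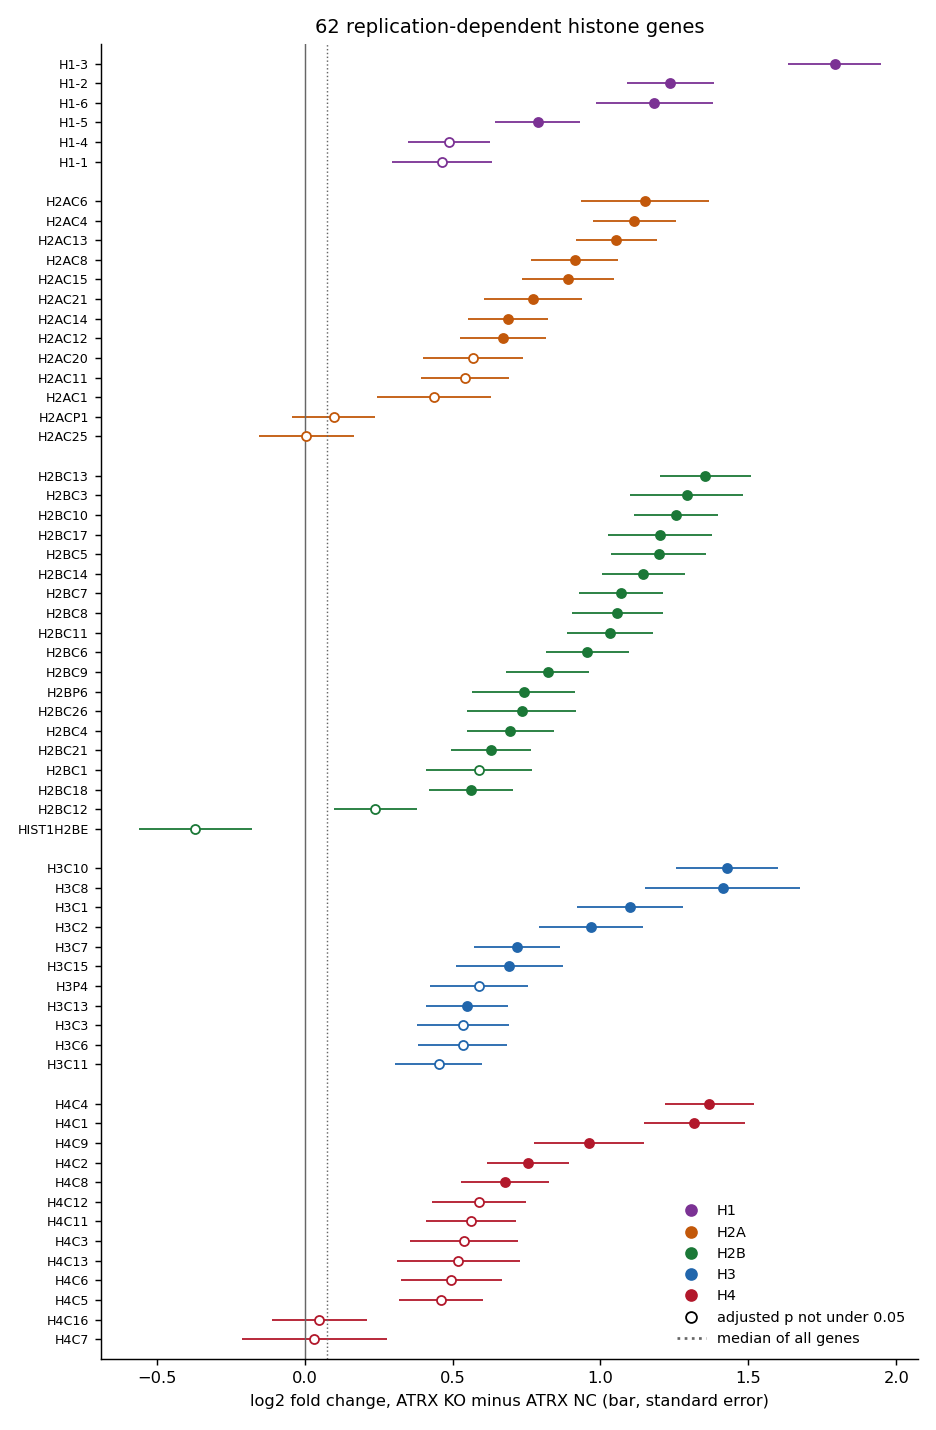
Log2 fold change, ATRX KO minus ATRX NC (x axis, bar for the standard error), of each of the 62 histone genes (y axis) by class, with filled points for an adjusted p under 0.05 and a dotted line at the median of all genes, 0.07. H1-3 lies highest at 1.79, and HIST1H2BE alone lies below 0 on the deposited scale.

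By chromosome, 33 of the 50 members on chromosome 6 rose, with a median of 0.86. On chromosome 1, where a smaller set of histone genes lies, 6 of 9 rose, with a median of 0.59 and none above 0.77. The count on chromosome 1 was 0 without ATRX KO replicate 1, ATRX KO replicate 3, ATRX NC replicate 1 or ATRX NC replicate 3, and 2 without ATRX KO replicate 2 or ATRX NC replicate 2. H4C16, the only member on chromosome 12, did not pass, and of the pair of pseudogenes on chromosome 13, H2BP6 rose by 0.74 and H2ACP1 did not pass. Among the fits that left an array out, H2BP6 passed only without ATRX KO replicate 2. A further 8 probe sets named 2 replication-dependent histone genes each and were outside the rule. Of the genes they named only H3C15 is a member. H4C14 with H4C15, and H2AC18 with H2AC19, were each named by 2 of the probe sets. In all 8 probe sets every ATRX KO array lay above every ATRX NC array, against 19.0% of all genes. The differences were 0.57 to 1.35 on the log2 scale.

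Rises were spread over the range of signal. Across the 62 members the fold change and the mean log2 level had a Pearson r of 0.12 and a Spearman rho of 0.04, given as a description because the points share the 6 arrays. With members ordered by signal, 9 of the 20 dimmest rose, 18 of the 21 in the middle and 13 of the 21 brightest, with medians of 0.56, 1.10 and 0.69. The dimmest held 5 rises without ATRX KO replicate 1 or 3, and the brightest 8 without ATRX KO replicate 1. The middle held 12 without ATRX NC replicate 2 or 3 and 13 without any 1 of the ATRX KO arrays. Of the 10 members with a mean level above 16, 4 rose, with a median of 0.55, against 8.98% of the 323 genes at such a level. This count was 2 without ATRX KO replicate 1 or 3 or ATRX NC replicate 1 or 3, where 5.57% to 6.5% of the genes at such a level rose. No member reached the ceiling of 19.93 in the deposited values, and compression of bright signals was not tested.

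**Figure D3:**
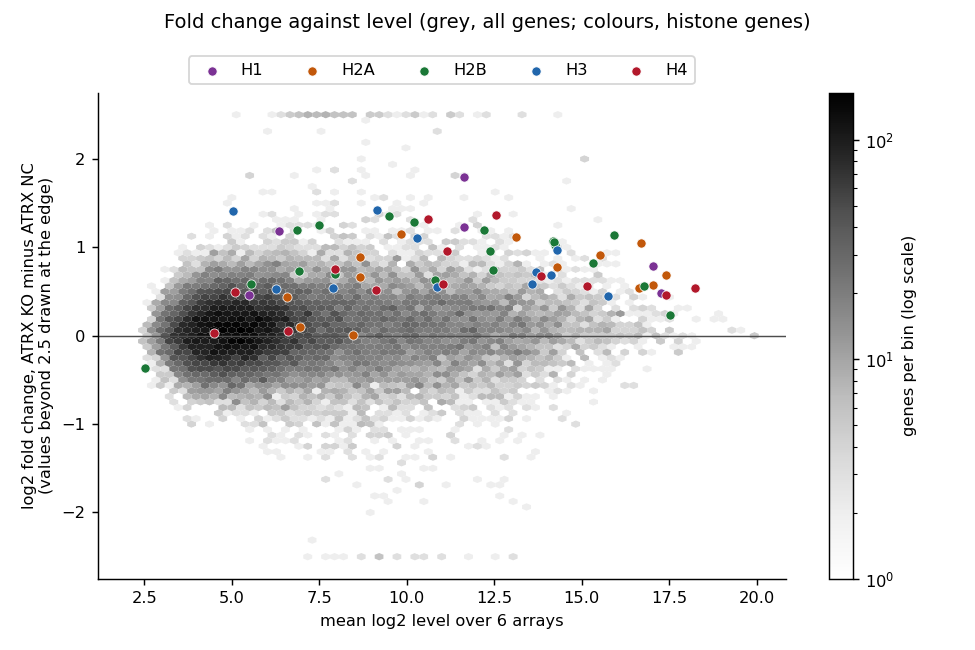
Log2 fold change, ATRX KO minus ATRX NC (y axis), against the mean log2 level over the 6 arrays (x axis), with grey bins for all 33458 genes on a log scale of genes per bin and coloured points for histone genes by class. The histone genes lie mostly above 0 at every level, and the members above a level of 16 have a median of 0.55.

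Histone genes are short, so other short genes were set beside them. With coding genes limited to those above the median level of 6.10, 28 of 246 others with a RefSeq span under 2000 bases rose (11.4%), with a median log2 fold change of 0.18. For the coding histone genes above that level the count was 38 of 53 (71.7%), with a median of 0.77, and other coding genes of any length rose in 11.1% of cases. The count of other short genes was 17 without ATRX KO replicate 1 or 3 and 18 without ATRX NC replicate 2 or 3, and that of the coding histone genes was 26 to 29 with an array left out. In the fit of protein-coding genes only, 49 of the 58 coding histone genes passed, with a median of 0.74. With a trend on gene span removed within each array of that fit, added after seeing the data, 45 passed (median 0.69). With the trend removed within 4 bands of level, 32 passed (median 0.51). The part of gene length in the result beyond these values was not tested.

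In the promoter windows, members with and without each motif rose. Of the 38 members with TATAAA, 25 rose, with a median log2 fold change of 0.74, and of the 16 without it 12 rose, with a median of 0.80. Of the 46 with CCAAT, 34 rose (median 0.86), and of the 8 without it, all of them H4 genes, 3 rose (median 0.58). Within H2B, 12 of 14 genes with the octamer rose (median 0.99), as did all 3 without it (median 1.20). These counts are descriptions, windows of divergent pairs overlap, and a match of letters is not a bound site.

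Among the members, 8 pairs of an H2A and an H2B gene were divergent, with starts 215 to 248 bases apart. Both genes rose in 4 pairs, 1 of them in 3 pairs, and neither in the pair of H2AC1 and H2BC1, the testis-type genes. Both genes passed in 2 pairs, and neither in 3, without ATRX KO replicate 1 or 3 or ATRX NC replicate 1 or 3. The H2B change was the larger in 7 of the 8 pairs, and across pairs the changes had a Pearson r of 0.43, given as a description. The gap was 0.06 for H2AC20 and H2BC21, 0.14 for H2AC8 and H2BC8 and 0.15 for H2AC1 and H2BC1. Each of these is less than the standard error of either gene. In every pair the H2A probe set had the higher signal, with ATRX NC means of 16.75 and 10.5 for H2AC20 and H2BC21. Class and signal level therefore cannot be told apart here. H2AC13 and H2BC13 rose by 1.05 and 1.35. H2AC25 and H2BC26, on chromosome 1, differed most, at 0.01 and 0.73, of which only the second passed the test, a call lost without any 1 of those same 4 arrays. H2AC6 and H2BC4 were the sole pair with the larger change on the H2A side, at 1.15 and 0.69. The call of H2BC4 was lost when any of the 6 arrays was left out, and that of H2AC6 without ATRX KO replicate 2. The DNA between the starts of H2BC13 and H2AC13 is shown because both genes rose, in the direction of H2AC13, with TATAAA and CCAAT on either strand in capitals:
H2BC13 and H2AC13 (chr6:27807930-27808172, plus strand): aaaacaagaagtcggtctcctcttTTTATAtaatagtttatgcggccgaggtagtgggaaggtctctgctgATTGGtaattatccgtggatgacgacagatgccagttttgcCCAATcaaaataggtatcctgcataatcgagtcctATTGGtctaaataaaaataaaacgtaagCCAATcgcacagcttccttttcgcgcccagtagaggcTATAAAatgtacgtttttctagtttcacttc
This stretch of 243 bases held TATAAA near each end, reading towards H2AC13 at 31 bases before its start and on the other strand towards H2BC13, with 4 CCAAT boxes between them, 2 in each direction.

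**Figure D4:**
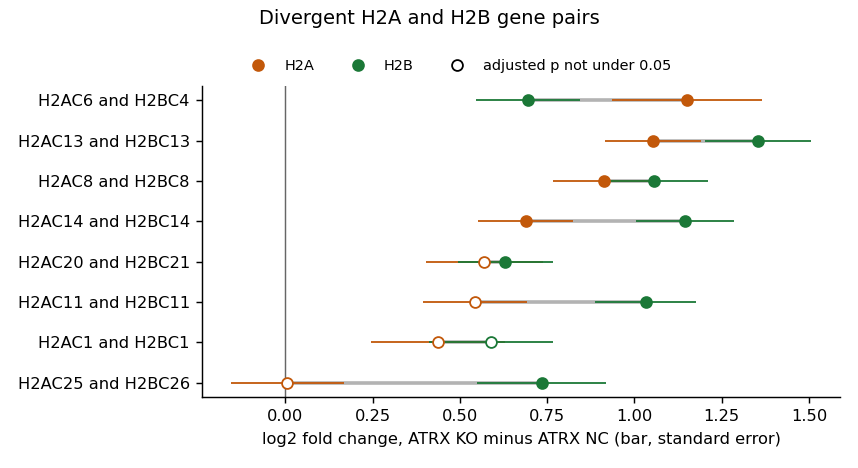
Log2 fold change, ATRX KO minus ATRX NC (x axis, bar for the standard error), of the H2A and the H2B gene of 8 divergent pairs (y axis), with filled points for an adjusted p under 0.05. The H2B point lies to the right in 7 of the 8 pairs, by as little as 0.06, and H2AC25 lies at 0.01 beside H2BC26 at 0.73. In every pair the H2A probe set has the higher signal.

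Of 28 measured genes of histone transcription and 3′ end processing, 4 rose (14.3%) and 0 fell, with a median log2 fold change of 0.16. For comparison, 5.83% of all genes and 11.1% of other coding genes above the median level rose. The count of rises in the list was 2 without ATRX KO replicate 1. At an unadjusted p under 0.05, 4 were lower by limma and 4 by the methods' t-test. Cyclin E, which with CDK2 phosphorylates NPAT at the start of S phase, was higher in both forms. CCNE1 had 10.67, 10.57 and 10.76 in ATRX KO arrays, against 9.73, 9.63 and 9.60 in ATRX NC arrays (1.01 ± 0.14, adjusted p = 0.0035). CCNE2 and CDK2 each rose by 0.87, and NFYC, a subunit of NF-Y, by 0.68. The call of CDK2 was lost without ATRX KO replicate 1, and that of NFYC without ATRX KO replicate 1 or 3 or ATRX NC replicate 2 or 3. The factors specific to histone genes did not pass. SLBP had 12.55, 12.68 and 12.57 in ATRX KO arrays, against 12.21, 12.17 and 12.32 in ATRX NC arrays (0.37 ± 0.14, adjusted p = 0.15). NPAT had 7.33, 8.06 and 7.52 in ATRX KO arrays, against 8.16, 8.29 and 8.29 in ATRX NC arrays (-0.61 ± 0.21, adjusted p = 0.11). CASP8AP2, a component of the histone locus body, was at -0.18 ± 0.15.

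Genes of DNA replication and S phase rose in 7 of 49 cases (14.3%, against 11.1% of other coding genes above the median level). None passed as lower (0, and 3 at an unadjusted p under 0.05 by limma and 3 by the methods' t-test), and the median was 0.18. RRM2, the small subunit of ribonucleotide reductase, rose by 0.98 ± 0.15 and CLSPN, which relays the replication checkpoint, by 1.06 ± 0.19, and CCNE1 and CCNE2 are in this list too. PCNA, the sliding clamp, was at 0.12 ± 0.14. The count was 4 without ATRX KO replicate 1, ATRX KO replicate 3 or ATRX NC replicate 2. The mean level of the list was 11.37 to 11.48 in ATRX KO arrays and 11.10 to 11.33 in ATRX NC arrays. Of 25 genes of G2 and mitosis, UBE2C and FOXM1 rose (8%), by 0.74 and 0.61, and the kinetochore genes CENPE and CENPF fell by 1.67 and 1.19. Both calls of a rise were lost without ATRX KO replicate 1 or 3 or ATRX NC replicate 1 or 2, and that of FOXM1 also without ATRX KO replicate 2 or ATRX NC replicate 3 and after each rescaling. MKI67, a proliferation marker, was at 0.18 ± 0.14, and the mean of the list was 13.79 to 13.92 in ATRX KO arrays and 13.83 to 13.96 in ATRX NC arrays. In RNA from whole cultures, a larger share of cells in S phase and more histone mRNA in each such cell cannot be told apart.

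ASF1B, a chaperone of newly made H3 and H4, was the 1 of 19 histone chaperones that rose (5.26%), by 0.68. Its call held only without ATRX NC replicate 2 among the 6 fits that left an array out. Of 13 genes for histones made outside S phase as well, 1 rose (7.69%). Both shares lie near the 5.83% of all genes that rose and below the 11.1% of other coding genes above the median level. Of the 13, 11 had a log2 fold change above 0, with a median of 0.29, against 0.07 over all genes. At an unadjusted p under 0.05, 5 were higher and 0 lower by limma. For 6 of the 13 every ATRX KO array lay above every ATRX NC array, and for 1 below, against 19.0% and 11.2% of all genes. With a variance trend and robust fit 5 rose, as did 3209 of all genes. H2AX, the variant phosphorylated at DNA breaks, had 14.26, 14.16 and 14.24 in ATRX KO arrays, against 13.50, 13.32 and 13.40 in ATRX NC arrays (0.81 ± 0.14, adjusted p = 0.0097). H3-3B, which encodes H3.3, was at 0.47 ± 0.14 (adjusted p = 0.078) and H2AZ1 at 0.24 ± 0.14 (adjusted p = 0.34). H3-3A had no probe set of its own.

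**Figure D5:**
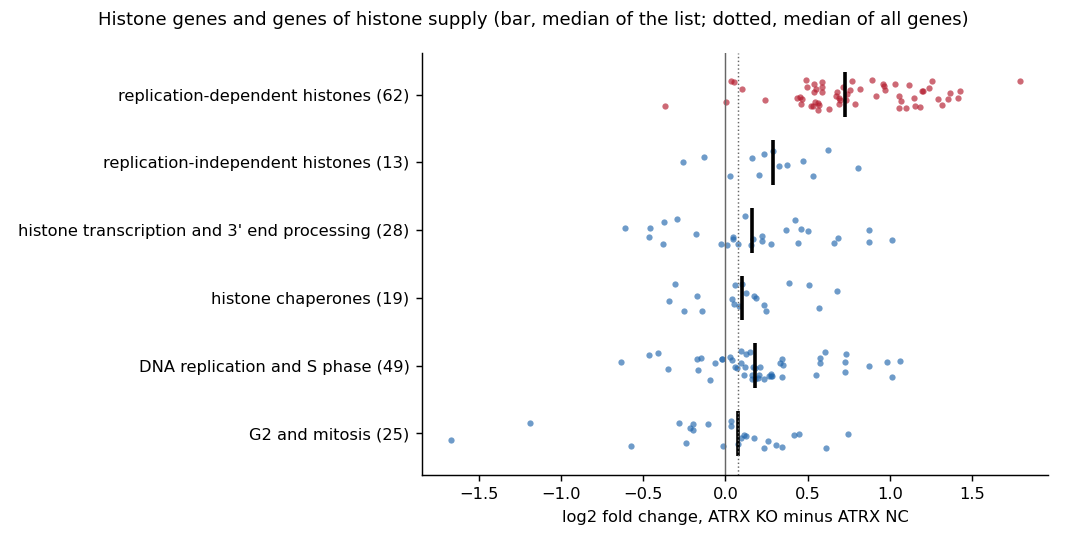
Log2 fold change, ATRX KO minus ATRX NC (x axis), of each gene of 6 lists (y axis, number of genes in brackets), with a black bar for the median of a list and a dotted line for the median of all genes. The replication-dependent histones have a median of 0.73, against 0.29 for replication-independent histones and 0.18 for DNA replication and S phase.

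Over the whole series, 1950 genes rose and 1246 fell, and the split was 1491 against 1568 after quantile normalization again, 1456 against 1604 after median centring and 1507 against 1551 after cyclic loess. The median of all genes was 0.07 as deposited and between -0.02 and 0.00 after these rescalings, and 34 of the 40 histone genes that rose kept their call under all 3. The targeted gene ATRX was at 8.47, 8.67 and 8.75 in ATRX KO arrays, against 10.49, 10.22 and 10.14 in ATRX NC arrays, and fell by 1.65 ± 0.16 on the log2 scale to 31.8% of the ATRX NC level (adjusted p = 0.00056). Of 9 measured markers of the glioma line, EGFR rose while NES and S100B fell. VIM was bright in both groups, whereas GFAP and OLIG2 lay below the median level of all genes in both. CD44 (0.26), SOX2 (0.44) and CHI3L1 (0.62) did not pass. In each of them every ATRX KO array lay above every ATRX NC array, as for 19.0% of all genes. The mean level of the 9 was 9.98 to 10.05 in ATRX KO arrays and 10.08 to 10.32 in ATRX NC arrays. Fibroblast markers did not all move alike. Of 8 measured, 4 rose (FAP, LUM, DCN and PDGFRB), and the mean level of the 8 was 9.73 to 9.93 in ATRX KO arrays and 8.06 to 8.16 in ATRX NC arrays. FAP and LUM rose most, by 5.19 and 3.52. COL1A2 (0.68), THY1 (0.48), ACTA2 (-0.09) and COL1A1 (-0.31) did not pass, and every ATRX KO array of COL1A1 lay below every ATRX NC array. Immune markers were called by limma in 0 of 6 cases (3 higher at an unadjusted p under 0.05, and 1 by the methods' t-test), endothelial in 1 of 5 (PECAM1, higher) and epithelial in 1 of 5 (KRT19, higher). The call of PECAM1 was lost without ATRX KO replicate 1 or 3 and that of KRT19 with any array but ATRX KO replicate 1 left out. For these 3 lists the means were 6.35 to 6.67, 5.37 to 5.65 and 6.71 to 7.16 in ATRX KO arrays, against 6.11 to 6.26, 4.99 to 5.12 and 6.39 to 6.56 in ATRX NC arrays. The part of these in the histone result was not tested.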

How the data were processed

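RNA of 3 ATRX KO and 3 ATRX NC samples, grouped by the titles in their labels, was measured on whole-transcript arrays. The authors deposited log2 intensities of 135748 probe sets, by their methods normalized with the quantile algorithm of limma. The methods name Agilent arrays, whereas the probe set identifiers are those of an Affymetrix array. For the background correction, the summary of probes and the software versions, the sources used here give nothing, and no detection call accompanies the values. The labels name 3 amplification kits without saying which was used, so the capture of histone mRNA that lacks a poly(A) tail is not known. Arrays have no read depth, and their number limits the precision.

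Gene symbols came from the platform annotation, in which 36176 probe sets had 1 symbol, 1119 several and 98453 none. Symbols were updated to RefSeq (GRCh38.p14) by Entrez number for 25516 probe sets and by synonym for 623, and the probe set with the highest mean represented each of the 33458 genes. HIST1H1C and HIST1H4C probe sets merged into H1-2 and H4C3.

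ATRX KO was compared with ATRX NC in R 4.3.3 with limma 3.58.1 (lmFit, eBayes) on these values, with Benjamini-Hochberg adjustment over all genes and a threshold of 0.05. The fit was tested on simulated data. Figures and counts used Python 3.11.15, pandas 2.3.3 and matplotlib 3.10.9, and robust fits statmod 1.5.0.

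Members and lists were chosen with earlier results of these data known. Genes named are ATRX, the 12 members with the largest rises, the brightest of each class, the 2 nearest the threshold on each side, up to 4 genes past the test in each direction of a list, and SLBP, NPAT, CASP8AP2, H3-3A, H3-3B, H2AX, H2AZ1, MKI67 and PCNA. Other members were named after their values were seen. Alternatives were 3 rescalings, the replicate number as a block, 2 filters on dim genes, a robust fit with a variance trend, protein-coding genes only, the mean of a gene's probe sets, the methods' t-test and the omission of each array in turn. Removal of a gene span trend was added after seeing the data. Protein sequences were not analysed here.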

Additional observations from a re-analysis of the deposited data

How the results depend on the processing

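Of the 40 histone genes that rose, 22 passed in every alternative that tested them, 34 in all 3 rescalings and 23 in all 6 fits with an array left out, and 0 members fell in any. Counts of histone genes that rose were 28 to 51 across the alternatives that kept all arrays, and 26 to 31 with an array left out. The median log2 fold change of the histone genes, 0.73, was 0.63 after quantile normalization again, median centring or cyclic loess. With an array left out it was 0.68 to 0.78. Among protein-coding genes only it was 0.74, and 0.51 with the span trend removed from these within 4 bands of level. Over all genes, 3196 were called (1950 higher, 1246 lower). There were 4953 (3052 higher, 1901 lower) among genes above the median level, 5134 (3209 higher, 1925 lower) with a variance trend and robust fit, 1998 (1225 higher, 773 lower) by the methods' t-test, and 1777 to 2196 (1041 to 1361 higher, 736 to 835 lower) with an array left out. Fewer genes were tested above the median level and fewer samples with an array left out, and for the rest the cause was not tested. By the methods' t-test 55 histone genes had an unadjusted p under 0.05 and 33 passed after adjustment. The 2 members nearest inside the threshold, H3C13 and H3C15, did not pass after any rescaling, nor did FOXM1 and KRT19, and RRM2 did not pass with the mean over its probe sets.

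Same-numbered arrays did not deviate together (correlations of -0.04 to -0.01), and arrays of different numbers had correlations of -0.01 to 0.03. With 3 normalized arrays a group, such values cannot show whether the samples were cultured or processed in pairs. With a replicate block 2048 genes were called (1252 higher, 796 lower), of which 28 were histone genes.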
